A study of Mus musculus with 39 samples.

Results

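Expression was followed for 10 genes of proteins that bind Ca2+ in, or protect cells from within, the lumen of the endoplasmic reticulum (ER) and the early secretory pathway. They are Calr, Canx, Rcn1, Rcn2, Rcn3, Calu, Sdf4, Manf, Cdnf and Nucb2. The genes were chosen by name, as the rows of the count table that carry these symbols, and all 10 were found among 24421 gene symbols. The cells were MIN6, an insulin-secreting line grown out of a tumour of mouse β cells, so the results describe 1 transformed line and not islet β cells. They received SW016789 (5 µM), a compound under which β cells hypersecrete insulin, thapsigargin (100 nM), which blocks the pump that fills the ER with Ca2+ and served as the ER stress control, or DMSO vehicle (0.1%), each for 1, 2, 6 or 24 h, and untreated cells were taken at 0 h. These 13 groups of 3 libraries came from 3 experiments of 13 samples each, in which treatment was started at different times and all samples were collected together.

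The ER folds secreted proteins, insulin among them, and is the main Ca2+ store of the cell. Calnexin and calreticulin hold newly made glycoproteins by their sugar chains while these fold, and calreticulin also binds much of the stored Ca2+ with low affinity. The reticulocalbins, calumenin and Cab45 belong to the CREC family, whose members carry several EF-hand Ca2+-binding loops and sit in the ER, the Golgi or both. MANF and CDNF are small ER proteins that were first described as factors that keep neurons alive, and MANF is secreted by stressed cells. When unfolded proteins build up or ER Ca2+ runs low, the unfolded protein response (UPR) raises transcription of many ER chaperones through ATF6 and XBP1, which act at promoter sequences called ER stress elements.

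Each library held 9150443 to 47616080 counts on genes (median 32153770). Levels are given as CPM (counts per 1000000 counts of a library, scaled by TMM), the error beside a fold change is its standard error in the edgeR model, and a gene is said to have risen or fallen only at an adjusted p below 0.05 over all 21752 genes tested in edgeR's quasi-likelihood test (n = 3 libraries per group). All 10 genes passed the filter on low counts. Levels of cell type markers, here and below, are CPM without TMM scaling, and a marker was counted by the mean of its group. Of 8 β cell markers 8 were at 1 CPM or more in the 0 h cells, of 4 markers of other islet cells 1 (Gcg; summed level of the list 254 to 281 CPM), of 7 stromal, endothelial and immune markers 3 (Col1a1, Col1a2 and Pecam1; 7.25 to 11.4 CPM), and of 6 acinar and ductal markers 0 (0.25 to 2.7 CPM). In some treated groups more of the last 2 lists reached 1 CPM. With SW016789 at 1 h 4 of 6 acinar and ductal and 7 of 7 stromal, endothelial and immune markers did. With thapsigargin at 2 h 6 of 6 and 7 of 7 did. These numbers were 0 and 2 with SW016789 at 2 h and again at 24 h, and 0 and 3 with thapsigargin at 24 h. The libraries of a group differed widely. With SW016789 at 1 h the summed acinar and ductal markers were at 0.239, 4.12 and 25.1 CPM. The summed stromal, endothelial and immune markers were at 4.69, 18.3 and 69.1 CPM. With thapsigargin at 2 h these sums were 3, 11.45 and 16.8 CPM and 16.5, 31.7 and 48.8 CPM. The share of reads between genes was 6.17% to 36.6% per library. With SW016789 for 1 to 6 h it had a median of 14.4%, and in the DMSO libraries of these times 7.24% (mean difference 6.82 points, exact permutation within each time, two-sided, p = 0.116, adjusted p = 0.116). With thapsigargin the median was 21%, against the same 7.24% (13.7 points, exact permutation p = 0.001, adjusted p = 0.002 over both tests). It was above 25% in 6 libraries, which were SW016789 replicate 1 at 1 h and at 6 h, thapsigargin replicate 2 at 1 h and at 6 h, and thapsigargin replicates 1 and 3 at 2 h. At 24 h all 9 libraries lay between 6.23% and 9.09%.

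In the 15 untreated and DMSO libraries the genes differed widely in level per kb of exon (the deposited exon length of each gene). Calr stood highest at a median of 538 CPM per kb (lowest 493, highest 616), then Canx at 269 (254 to 288) and Manf at 150 (128 to 192). Nucb2, which encodes nucleobindin 2, the EF-hand precursor of nesfatin-1, followed at 41 CPM per kb (37.5 to 54.5). The ranges of these 4 genes did not overlap each other or that of any gene below them. Rcn2 at 32.3 CPM per kb (27.2 to 36), Sdf4 at 29.8 (26.6 to 33.6) and Calu at 29.4 (26.6 to 32.1) overlapped and have no order. Below them stood Rcn3 at 3.63 CPM per kb (3.33 to 6.7) and Rcn1 at 1.41 (0.516 to 1.91). Cdnf was lowest at 0.118 CPM per kb (0 to 0.508), on 0 to 41 counts per library, too few to follow. None of the 10 genes was called between DMSO of any time and the 0 h baseline by edgeR or DESeq2, and 0 had an unadjusted p under 0.05.

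**Figure D1:**
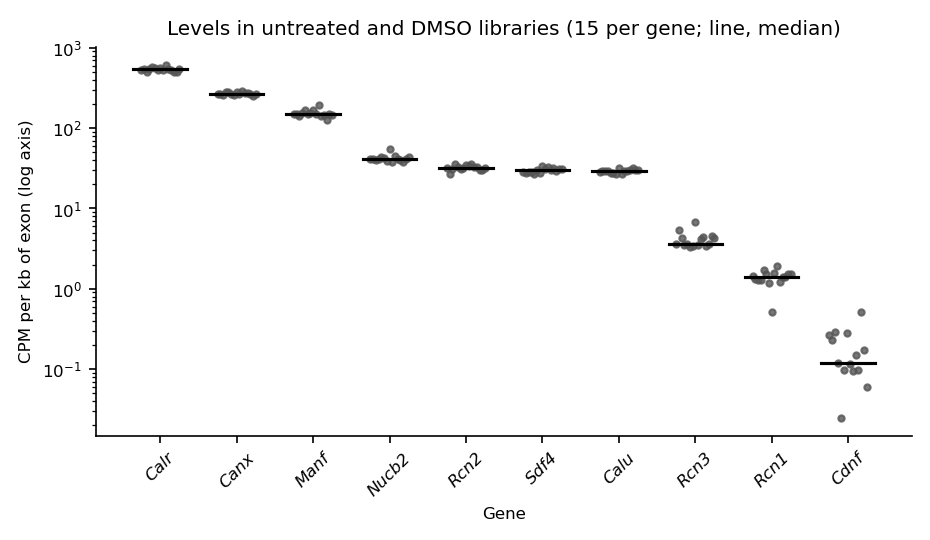
Each point is 1 of the 15 untreated or DMSO libraries, with level as CPM per kb of exon on a log axis and the median as a line; 1 library with 0 reads of Cdnf cannot be drawn on this axis. Calr, Canx, Manf and Nucb2 hold separate ranges, and Rcn2, Sdf4 and Calu overlap at about 30 CPM per kb.

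The comparison of SW016789 with time-matched DMSO asks which of these genes respond to a hypersecretion stimulus and when. At 1 h 0 of the 10 genes were called by edgeR and 0 by DESeq2, and Rcn3 alone had an unadjusted p below 0.05 (of all genes, 0.372% were called in either direction). At 2 h 3 rose, where 1.9% of all genes rose, and they were Manf, Calr and Calu. At 6 h 5 rose (background 4.19%), namely Manf, Calr, Nucb2, Calu and Canx. At 24 h 6 rose (background 1.95%), the same 5 genes and Rcn3. None fell at any time. The median log2 fold change of the 10 genes was 0.01, 0.09, 0.48 and 0.65 at 1, 2, 6 and 24 h, beside 0.12, 0.06, 0.12 and 0.06 for all genes tested.

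Thapsigargin, the ER stress control, was compared with the same DMSO libraries, so the comparisons of both drugs share them. At 1 h and 2 h 0 of the 10 genes were called by edgeR or DESeq2 and 1, Rcn1, had an unadjusted p under 0.05 at each time (backgrounds 0.046% and 1.38% in either direction). At 6 h Manf rose (background 8.06%) and Rcn2 and Sdf4 fell (background 8.73%). At 24 h 5 genes rose, Calr, Manf, Nucb2, Canx and Calu (background 10.1%), and Rcn3 fell (background 10.7%). The 5 that rose had also risen with SW016789 at 6 h and at 24 h. The median of the 10 genes was 0.01, 0.00, 0.07 and 0.62 at 1, 2, 6 and 24 h, beside 0.16, 0.27, 0.30 and 0.07 for all genes.

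In the direct test of SW016789 against thapsigargin, 0 genes were called at 1 h by edgeR or DESeq2 (1 unadjusted, background 0.11% in either direction). At 2 h Manf and Calr were higher with SW016789 (background 0.565%). At 6 h 7 of the 10 were higher with SW016789 (background 7.54%), and the other 3 were Rcn3, Rcn1 and Cdnf. At 24 h 2 were higher with SW016789, Rcn3 and Rcn2 (background 9.78%), and none was called lower.

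**Figure D2:**
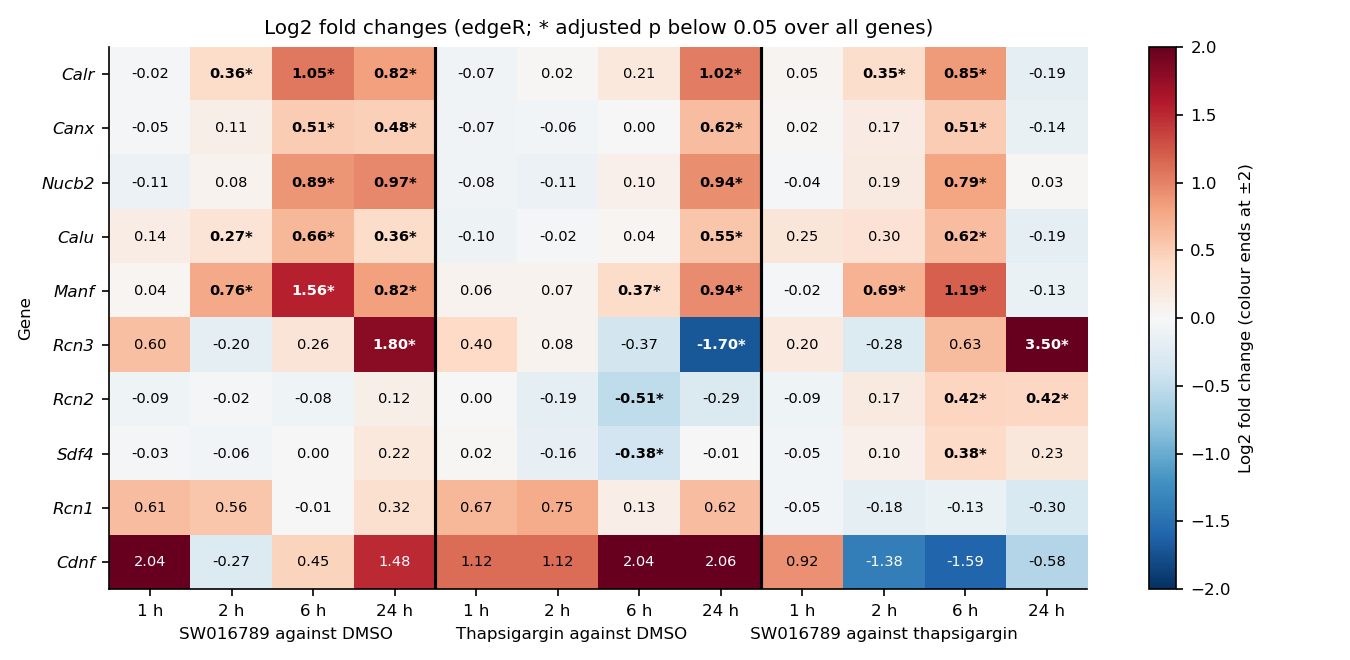
Log2 fold changes of the 10 genes (rows) at 1, 2, 6 and 24 h for SW016789 against DMSO, thapsigargin against DMSO and SW016789 against thapsigargin, with an asterisk and bold type where the adjusted p was below 0.05; the colour ends at 2 and -2. The upper 5 rows turn red from 2 or 6 h with SW016789. With thapsigargin they are red at 24 h, and Manf has an asterisk from 6 h on. Rcn3 is 1.80 with SW016789 and -1.70 with thapsigargin at 24 h.

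Calr, the gene of calreticulin, lies on the minus strand at chr8:84842088-84846931 (mm10), and Canx, the gene of calnexin, its membrane-bound relative, on the minus strand at chr11:50293957-50325673. Their promoters are shown because these are the 2 members that hold a complete ER stress element (ERSE, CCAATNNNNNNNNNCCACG, the joint site of NF-Y and ATF6 or XBP1). The sequences are of RefSeq on GRCm38.p6, 5′ to 3′ along the gene, with the ERSE in capitals, and span 250 bases before to 50 after the start of the gene. That of Calr covers chr8:84846882-84847181 and reads the element on the opposite strand, so it appears as its reverse complement, and that of Canx covers chr11:50325624-50325923.
Calr: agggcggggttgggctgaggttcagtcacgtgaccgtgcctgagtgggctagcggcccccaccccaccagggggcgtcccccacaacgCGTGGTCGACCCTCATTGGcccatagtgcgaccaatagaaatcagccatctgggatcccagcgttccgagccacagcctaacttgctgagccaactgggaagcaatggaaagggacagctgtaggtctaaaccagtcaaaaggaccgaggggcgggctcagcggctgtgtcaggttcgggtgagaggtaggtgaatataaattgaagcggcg
Canx: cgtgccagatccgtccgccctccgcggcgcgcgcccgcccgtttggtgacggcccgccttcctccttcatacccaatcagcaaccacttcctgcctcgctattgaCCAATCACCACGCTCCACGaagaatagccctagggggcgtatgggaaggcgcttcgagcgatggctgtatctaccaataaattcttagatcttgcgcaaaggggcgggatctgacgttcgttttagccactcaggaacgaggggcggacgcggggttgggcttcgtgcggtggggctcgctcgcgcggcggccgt

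Counted on both strands, this element was in 39 of 32851 mouse promoters of this length (0.119%). Promoters were matched for 8 of the 10 genes, all but Manf and Rcn1. The ERSE-II (ATTGGNCCACG, in 0.0365% of promoters) and the unfolded protein response element (TGACGTGG, in 0.676%) were in 0 of the 8, and the C/EBP-ATF response element (TGATGNAA, in 3.97%) was in that of Cdnf. The second part of the ERSE alone (CCACG) was in 7 of the 8 and in 32.8% of all promoters. It overlaps the ERSE and can overlap the other elements that end in it. These matches describe letters in a window and were not tested for binding.

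Calr was 2.07-fold higher at 6 h with SW016789 and 2.02-fold higher at 24 h with thapsigargin, and Canx 1.42-fold and 1.53-fold. At 2 h Calr was at 1273, 1263 and 1340 CPM with SW016789, against 957, 1078 and 980 CPM with DMSO, and the groups did not overlap (log2 fold change 0.36 ± 0.08, adjusted p = 0.00357). That call was lost without replicate 3 of DMSO 2 h (0.41, adjusted p = 0.193) or of SW016789 2 h (0.36, adjusted p = 0.308). At 6 h it was at 1788, 2273 and 2235 CPM with SW016789, 1146, 1130 and 1228 CPM with thapsigargin, and 1054, 1017 and 967 CPM with DMSO. The 3 groups at 6 h were fully apart, and the lowest SW016789 library was the one with 26.5% intergenic reads. Calr had risen with SW016789 at 6 h (1.05 ± 0.08, adjusted p = 1.25e-12), while with thapsigargin the difference did not pass (0.21 ± 0.08, adjusted p = 0.06). That last value passed with the experiment number as a block (0.21, adjusted p = 0.0381), with the block and the intergenic share (0.29, adjusted p = 0.000509), with DESeq2 (0.24, adjusted p = 0.00153) and with DESeq2 size factors (0.24, adjusted p = 0.0124). At 24 h Calr was at 2116, 1967 and 1925 CPM with SW016789, 2210, 2321 and 2347 CPM with thapsigargin, and 1132, 1198 and 1072 CPM with DMSO. All 6 treated libraries lay above the 3 DMSO libraries, with a log2 fold change of 0.82 ± 0.08 for SW016789 (adjusted p = 3.9e-09) and 1.02 ± 0.08 for thapsigargin (adjusted p = 5.92e-13).

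Canx passed no test at 1 or 2 h with either drug. At 6 h it was at 1504, 1665 and 1713 CPM with SW016789, 1216, 1097 and 1126 CPM with thapsigargin, and 1213, 1139 and 1088 CPM with DMSO. The thapsigargin and DMSO libraries overlapped, and the SW016789 libraries stood above both. The rise with SW016789 was 0.51 ± 0.07 (adjusted p = 5.0e-06), and the call was lost without SW016789 6 h replicate 2 (0.44, adjusted p = 0.0652) or replicate 3 (0.43, adjusted p = 0.0591). At 24 h Canx was at 1705, 1599 and 1704 CPM with SW016789, 1757, 1869 and 1897 CPM with thapsigargin, and 1213, 1234 and 1153 CPM with DMSO, and rose with both drugs (0.48 ± 0.07, adjusted p = 4.09e-05, and 0.62 ± 0.07, adjusted p = 2.19e-08). The libraries hold RNA of whole cultures, so a change in RNA per cell and a change in the make-up of the culture cannot be told apart.

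Between the drugs, Calr was higher with SW016789 at 2 h (0.35 ± 0.08, adjusted p = 0.0178) and 6 h (0.85 ± 0.08, adjusted p = 5.31e-10), and Canx at 6 h (0.51 ± 0.07, adjusted p = 5.37e-06). The 2 h difference of Calr was lost without the libraries above 25% intergenic reads (0.32, adjusted p = 0.868) and with the compared libraries alone (0.41, adjusted p = 0.0596). It was also lost without replicate 1, 2 or 3 of SW016789 2 h (adjusted p = 0.0723, 0.0843 and 0.549) and without replicate 1 or 3 of thapsigargin 2 h (0.474 and 0.71), at log2 fold changes of 0.36 to 0.43. At 24 h the difference of SW016789 from thapsigargin was -0.19 for Calr (95% interval -0.35 to -0.04, adjusted p = 0.0806) and -0.14 for Canx (-0.29 to 0.01, adjusted p = 0.232). For Calr it passed with DESeq2 (-0.19, adjusted p = 0.0121), with the experiment block and the intergenic share as terms (-0.19, adjusted p = 0.00861), without the libraries above 25% intergenic reads (-0.22, adjusted p = 0.0328) and with the compared libraries alone (-0.21, adjusted p = 0.032). For Canx it passed with the block and the intergenic share (-0.14, adjusted p = 0.0273).

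**Figure D3:**
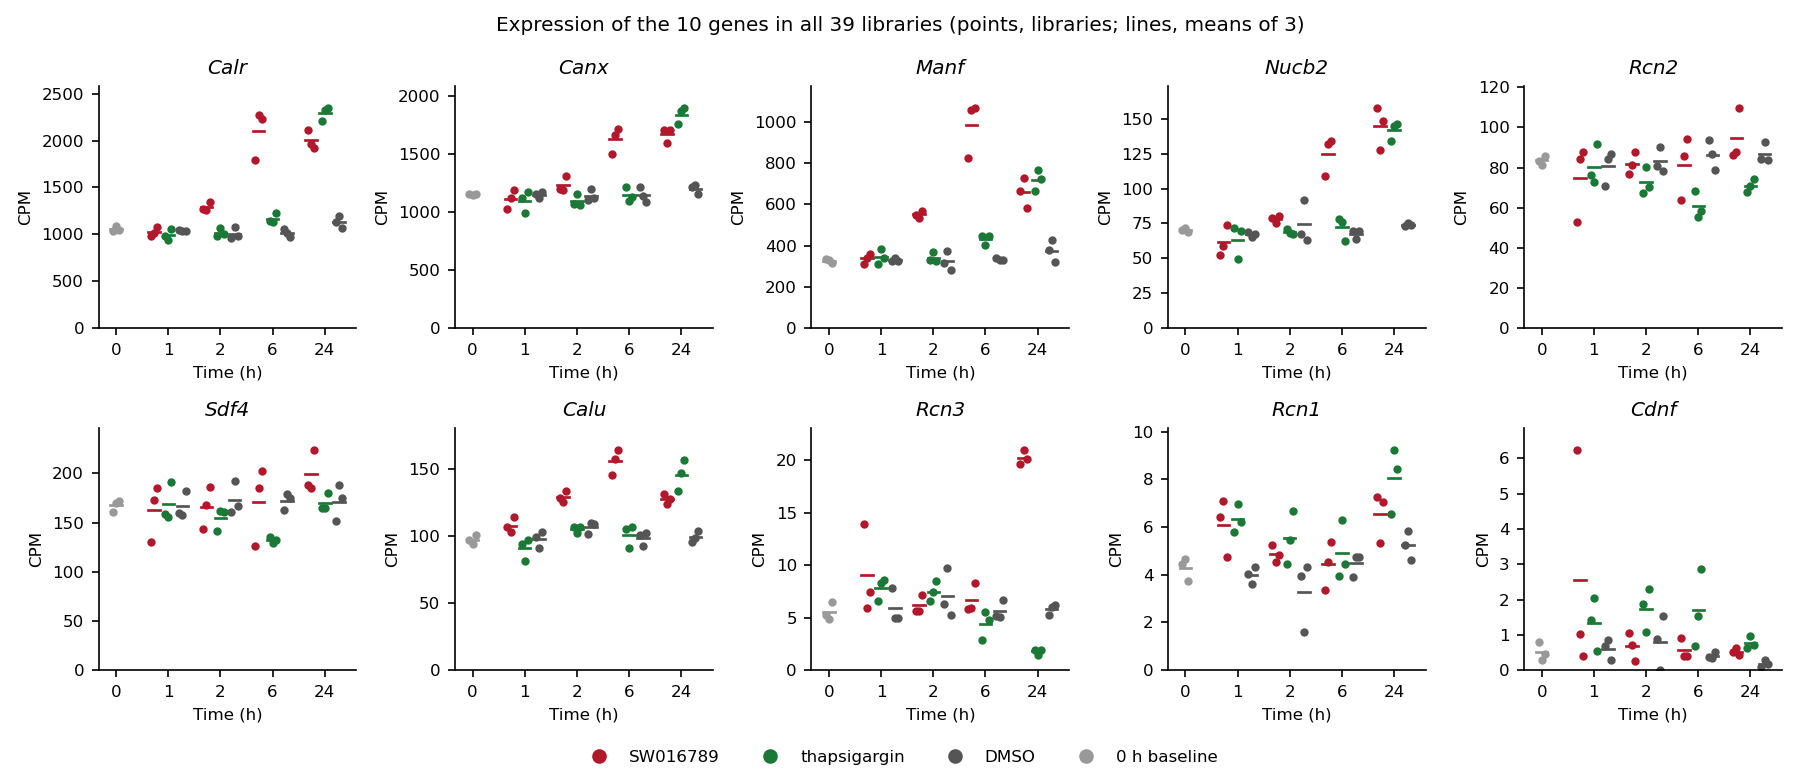
CPM of each gene in all 39 libraries by time, drawn at even spacing, with SW016789 left of thapsigargin left of DMSO at each time and the mean of 3 libraries as a line. Manf with SW016789 is highest at 6 h, and Rcn3 parts in opposite directions at 24 h. Calr and Canx with thapsigargin stand above DMSO at 24 h. For both genes each thapsigargin library is then above each SW016789 library, a difference that was not called in the fit over all libraries.

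Manf (minus strand, chr9:106887415-106891938) had the largest fold change of the 10 genes with SW016789 at 2 h and among those that rose at 6 h. At 2 h it was at 549, 534 and 568 CPM with SW016789, 331, 368 and 323 CPM with thapsigargin, and 314, 376 and 282 CPM with DMSO. Every SW016789 library was above every other library of that time (against DMSO 0.76 ± 0.10, adjusted p = 3.9e-06). At 6 h Manf was at 823, 1058 and 1066 CPM with SW016789, 444, 405 and 446 CPM with thapsigargin, and 340.5, 330.1 and 331 CPM with DMSO. The 3 groups were apart. Manf rose 2.94-fold with SW016789 (1.56 ± 0.11, adjusted p = 1.42e-13) and 1.29-fold with thapsigargin (0.37 ± 0.10, adjusted p = 0.0113). The thapsigargin call at 6 h was lost without DMSO 6 h replicate 1 (0.33, adjusted p = 0.199), 2 (0.33, adjusted p = 0.0853) or 3 (0.32, adjusted p = 0.108) and without thapsigargin 6 h replicate 1 (0.22, adjusted p = 0.243) or 3 (0.32, adjusted p = 0.0773). At 24 h Manf was at 663, 728 and 583 CPM with SW016789, 665, 767 and 721 CPM with thapsigargin, and 376, 425 and 318 CPM with DMSO. The drugs overlapped, and both lay above DMSO (0.82 ± 0.10, adjusted p = 1.39e-06, and 0.94 ± 0.10, adjusted p = 4.14e-09).

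The drugs differed in Manf at 2 h (0.69 ± 0.10, adjusted p = 7.01e-05) and 6 h (1.19 ± 0.11, adjusted p = 2.36e-10). The 2 h difference was lost without the libraries above 25% intergenic reads (0.63, adjusted p = 0.065), which leaves 1 thapsigargin library of that time. At 24 h it was -0.13 (95% interval -0.34 to 0.09, adjusted p = 0.538). Manf was counted beside Rbm15b, which meets its end on the same strand in GENCODE M21, so reads at that border could belong to either gene.

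Cdnf (chr2:3513065-3526376), the paralog of Manf, reached at most 6.24 CPM, in SW016789 1 h replicate 1, which also had the largest intergenic share of all libraries. It passed no test in the fit over all libraries, with standard errors near 1.0 on the log2 scale. In the 6 libraries above 25% intergenic reads it was at 0.902 to 6.24 CPM (median 1.96), and in the other 33 at 0 to 2.86 CPM (median 0.535). With the experiment block and the intergenic share as terms Cdnf again passed no test, and its difference from DMSO with SW016789 at 1 h was 0.24, against 2.04 without these terms. With the compared libraries alone Cdnf passed for thapsigargin against DMSO at 24 h (2.04, adjusted p = 0.0141). The thapsigargin libraries then held 0.634 to 0.976 CPM on 26 to 32 counts. Those of DMSO held 0.0742 to 0.2875 CPM on 3 to 11 counts.

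**Figure D4:**
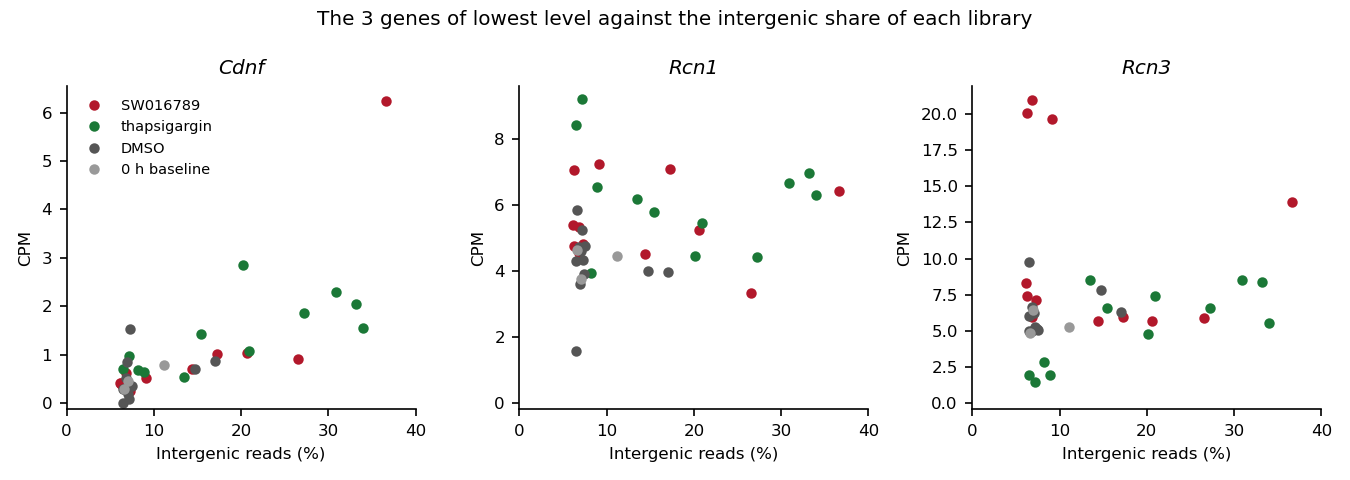
CPM of Cdnf, Rcn1 and Rcn3, the 3 genes of lowest level, in each of the 39 libraries against the share of reads between genes in percent, coloured by treatment. The 6 libraries above 25% lie at 0.902 to 6.24 CPM for Cdnf and the other 33 at 0 to 2.86 CPM. The medians of the 6 and of the 33 are 6.375 and 4.756 CPM for Rcn1, and 7.45 and 5.95 CPM for Rcn3. The highest and the lowest Rcn3 values, 21 and 1.46 CPM, are both in libraries with a low intergenic share.

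Effects were also compared between times within each drug, from 2 to 6 h and from 6 to 24 h. The change from 1 to 2 h was not tested. The SW016789 effect grew from 2 to 6 h for 4 of the 10 genes (background 0.8%). These were Nucb2 (0.81 ± 0.17, adjusted p = 0.00555), Manf (0.79 ± 0.15, adjusted p = 0.00142), Calr (0.69 ± 0.11, adjusted p = 0.000148) and Canx (0.39 ± 0.10, adjusted p = 0.0453). Calu missed the threshold (0.39 ± 0.11, adjusted p = 0.0586) and passed it with the experiment number as a block (0.39, adjusted p = 0.0121). All 4 calls were lost without DMSO 6 h replicate 1 (adjusted p = 0.188 to 0.762), SW016789 6 h replicate 2 (0.212 to 0.545), DMSO 2 h replicate 3 (0.0634 to 0.498), SW016789 2 h replicate 3 (0.0885 to 0.679) or SW016789 6 h replicate 3 (0.159 to 0.557). Without DMSO 2 h replicate 2 those of Nucb2 (0.62, adjusted p = 0.073) and Canx (0.35, adjusted p = 0.253) were lost. That of Canx was lost without any 1 of the 12 libraries except SW016789 6 h replicate 1, at 0.27 to 0.42 (adjusted p = 0.0547 to 0.762). Over these fits the growth was 0.54 to 0.68 for Calr, 0.65 to 0.83 for Manf and 0.62 to 0.87 for Nucb2 wherever the call was lost.

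From 6 to 24 h the SW016789 effect on Manf shrank by 0.74 ± 0.15 (-0.74, adjusted p = 0.00264, background for a decrease 0.938%), and that on Rcn3 grew (1.54 ± 0.39, adjusted p = 0.0315, background for an increase 0.515%). The Manf call was lost without DMSO 6 h replicate 1 (-0.74, adjusted p = 0.169) or SW016789 6 h replicate 2 (-0.63, adjusted p = 0.23) or 3 (-0.63, adjusted p = 0.167). With thapsigargin 0 genes changed in effect from 2 to 6 h by edgeR or DESeq2, and 0 had an unadjusted p under 0.05 (background 3.2% in either direction). From 6 to 24 h the thapsigargin effect grew for 5 genes (background 3.13%), Nucb2 (0.84 ± 0.17, adjusted p = 0.00113), Calr (0.81 ± 0.11, adjusted p = 3.1e-06), Canx (0.62 ± 0.10, adjusted p = 0.000104), Manf (0.58 ± 0.15, adjusted p = 0.0112) and Calu (0.51 ± 0.11, adjusted p = 0.00158), and fell for Rcn3 (background 3.15%). That of Calu was lost without DMSO 6 h replicate 1 (0.61, adjusted p = 0.0526) or thapsigargin 24 h replicate 3 (0.55, adjusted p = 0.0859). That of Manf was lost without either of these (0.67, adjusted p = 0.0799, and 0.66, adjusted p = 0.0845), thapsigargin replicate 2 of 6 h (0.53, adjusted p = 0.0579) or of 24 h (0.53, adjusted p = 0.0673), or DMSO 24 h replicate 3 (0.48, adjusted p = 0.0931).

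**Figure D5:**
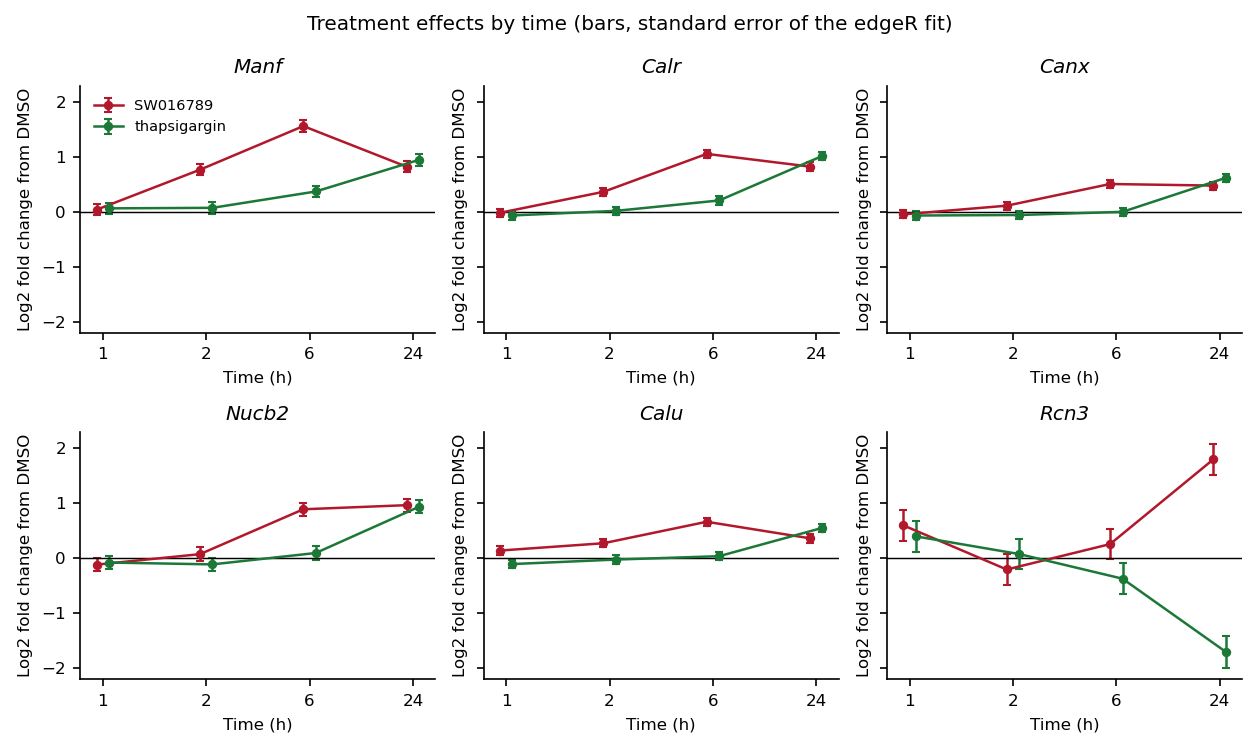
Log2 fold change from DMSO of the same time for 6 genes, for SW016789 and thapsigargin, with times drawn at even spacing. Bars are the standard error worked back from the edgeR test. For Manf the SW016789 line peaks at 1.56 at 6 h and stands at 0.82 at 24 h, where thapsigargin stands at 0.94, and the lines of Rcn3 end at 1.80 and -1.70.

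Nucb2 (chr7:116504369-116540588) rose with SW016789 at 6 h and with both drugs at 24 h. At 6 h it was at 109.2, 131.9 and 134.1 CPM with SW016789, 77.9, 76 and 62.7 CPM with thapsigargin, and 69.3, 63.7 and 69.6 CPM with DMSO. The SW016789 libraries stood apart from both, at a log2 fold change of 0.89 ± 0.12 from DMSO (adjusted p = 1.28e-06) and 0.79 ± 0.12 from thapsigargin (adjusted p = 1.18e-05). At 24 h it was at 158, 128 and 148 CPM with SW016789, 134, 145 and 146 CPM with thapsigargin, and 73.2, 75 and 73.9 CPM with DMSO. It rose 1.95-fold with SW016789 and 1.91-fold with thapsigargin (0.97 ± 0.12, adjusted p = 8.77e-07, and 0.94 ± 0.12, adjusted p = 9.77e-08). The difference of SW016789 from thapsigargin at 24 h was 0.03 (95% interval -0.22 to 0.27, adjusted p = 0.965), and the change of the SW016789 effect from 6 to 24 h was 0.07 ± 0.17 (adjusted p = 1.0).

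In the CREC family Calu rose with both drugs, Rcn3 rose with SW016789 and fell with thapsigargin, and Rcn1, Rcn2 and Sdf4 rose with neither. Calu, the gene of calumenin (chr6:29348106-29376675), was at 128.8, 125.7 and 133.6 CPM with SW016789 at 2 h, 106.6, 102.3 and 107.1 CPM with thapsigargin, and 101.6, 110 and 109.5 CPM with DMSO. The SW016789 libraries were the highest (against DMSO 0.27 ± 0.08, adjusted p = 0.0419), and the call was lost without any 1 of the 6 libraries compared (0.23 to 0.36, adjusted p = 0.114 to 0.524) and with these 6 fitted alone (0.29, adjusted p = 0.279). At 6 h it was at 145.8, 157.8 and 164.5 CPM with SW016789, 105.2, 91 and 107.2 CPM with thapsigargin, and 100.6, 92.9 and 102.2 CPM with DMSO, a rise of 0.66 ± 0.08 with SW016789 (adjusted p = 4.92e-08) and a difference of 0.62 ± 0.08 between the drugs (adjusted p = 2.73e-07). At 24 h it was at 131.7, 124.4 and 128.1 CPM with SW016789, 133.7, 147.6 and 157.2 CPM with thapsigargin, and 95.8, 99 and 103.9 CPM with DMSO. Calu thus rose with both drugs at 24 h (0.36 ± 0.08, adjusted p = 0.00289, and 0.55 ± 0.08, adjusted p = 3.74e-07). The SW016789 call was lost without DMSO 24 h replicate 1 (0.32, adjusted p = 0.101) or 2 (0.34, adjusted p = 0.0613) or SW016789 24 h replicate 1 (0.33, adjusted p = 0.0664). The difference of SW016789 from thapsigargin in Calu at 24 h was -0.19 (95% interval -0.35 to -0.03, adjusted p = 0.0816), and with the experiment number as a block it passed (-0.19, adjusted p = 0.0329; with the intergenic share added 0.0111, and with DESeq2 0.02), as did that at 2 h (0.30, adjusted p = 0.0109, against 0.30 ± 0.08, adjusted p = 0.0604). The 3′ end of Calu overlaps Opn1sw on the other strand in GENCODE M21, which strand-aware counting separates.

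Rcn3, the gene of reticulocalbin 3, lies on the minus strand at chr7:45082914-45092213. Its promoter (chr7:45092164-45092463, RefSeq, GRCm38.p6) is printed since it is the one member the drugs moved in opposite directions, with the letters CCACG or their reverse complement in capitals. The window holds no complete ERSE, ERSE-II, unfolded protein response element or C/EBP-ATF response element.
Rcn3: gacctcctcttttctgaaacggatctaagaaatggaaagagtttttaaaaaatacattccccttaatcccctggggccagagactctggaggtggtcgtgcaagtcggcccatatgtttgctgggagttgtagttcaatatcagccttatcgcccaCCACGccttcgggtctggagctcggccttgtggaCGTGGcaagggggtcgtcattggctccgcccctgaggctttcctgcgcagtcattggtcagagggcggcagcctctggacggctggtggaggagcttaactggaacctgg

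At 24 h Rcn3 was at 19.7, 21 and 20.1 CPM with SW016789, 1.95, 1.46 and 1.94 CPM with thapsigargin, and 5.22, 6.01 and 6.21 CPM with DMSO. The 3 groups at 24 h were far apart, on libraries with 6.23% to 9.09% intergenic reads. Rcn3 rose 3.48-fold with SW016789 (1.80 ± 0.28, adjusted p = 4.96e-05) and fell to 0.308 of the DMSO level with thapsigargin (-1.70 ± 0.29, adjusted p = 1.61e-05), an 11.3-fold difference between the drugs (95% interval of the log2 difference 2.87 to 4.13, adjusted p = 2.69e-11). These 3 calls held without any 1 library. At 6 h it was at 5.86, 5.95 and 8.32 CPM with SW016789, 2.87, 5.54 and 4.77 CPM with thapsigargin, and 5.11, 5.06 and 6.68 CPM with DMSO, and passed no test. The lowest 2 of these 9 values were in thapsigargin libraries, and the difference between the drugs at 6 h was 0.63 (95% interval 0.05 to 1.21, adjusted p = 0.169). It passed without the libraries above 25% intergenic reads (0.98, adjusted p = 0.0252) and with the block and the intergenic share (0.86, adjusted p = 0.0196).

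The change of the Rcn3 effect from 6 to 24 h was 1.54 ± 0.39 with SW016789 (adjusted p = 0.0315) and -1.33 ± 0.40 with thapsigargin (adjusted p = 0.0375). The SW016789 call was lost without any 1 of the 12 libraries except SW016789 6 h replicate 3, at 1.40 to 1.61 (adjusted p = 0.0515 to 0.124). The thapsigargin call was lost without any 1 of the 12 except thapsigargin 6 h replicate 1 and DMSO 6 h replicate 3, at -1.12 to -1.39 (adjusted p = 0.0561 to 0.171). It was also lost without the libraries above 25% intergenic reads (-1.07, adjusted p = 0.0827) and with the experiment block and the intergenic share as terms (adjusted p = 0.0874). The start of Rcn3 overlaps the antisense gene Gm45669 in GENCODE M21, which strand-aware counting separates.

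Rcn2, the gene of reticulocalbin 2, and Sdf4, the gene of the Golgi protein Cab45, rose with neither drug and fell with thapsigargin at 6 h. Rcn2 (chr9:56041845-56059083) was then at 64, 85.8 and 94.4 CPM with SW016789, 68.4, 55.2 and 58.6 CPM with thapsigargin, and 93.7, 86.8 and 78.8 CPM with DMSO. All 3 thapsigargin libraries were below all DMSO libraries (-0.51 ± 0.13, adjusted p = 0.00687), and the lowest SW016789 library, replicate 1, lay among them. The call was lost without DMSO 6 h replicate 1 (-0.49, adjusted p = 0.125). Sdf4 (chr4:155992843-156013610) was at 126, 185 and 203 CPM with SW016789, 135, 129 and 132 CPM with thapsigargin, and 162, 179 and 175 CPM with DMSO. Again all thapsigargin libraries were below all DMSO libraries (-0.38 ± 0.13, adjusted p = 0.0344), and SW016789 replicate 1 was the lowest of the 9. That call was lost without any 1 of the 6 libraries except thapsigargin 6 h replicate 1, at -0.38 to -0.48 (adjusted p = 0.0758 to 0.115).

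Across the 6 libraries above 25% intergenic reads Rcn2 was at 53.1 to 73 CPM (median 65.7), and in the other 33 at 58.6 to 109.7 CPM (median 84.1). Sdf4 was at 126 to 160.5 CPM (median 136) in the 6 and at 132 to 224 CPM (median 172) in the 33. Of the thapsigargin 6 h libraries replicate 2 had 34% intergenic reads, replicate 3 20.2% and replicate 1 8.24%, and both genes were low in all 3. In the same libraries the summed acinar and ductal markers were at 0.526 to 15.3 CPM, against 0.0888 to 0.323 CPM with DMSO, with 3 of 6 at 1 CPM or more, and the summed stromal, endothelial and immune markers at 7.22 to 48.6 CPM, against 5.68 to 7.46 CPM. With the experiment block and the intergenic share as terms, the fall with thapsigargin at 6 h was smaller in both genes, at -0.28 for Rcn2 (adjusted p = 0.0305) and -0.22 for Sdf4 (adjusted p = 0.0501, no longer called). Without the libraries above 25% it was -0.43 for Rcn2 (adjusted p = 0.0117) and -0.36 for Sdf4 (adjusted p = 0.0377). The part of the other cell types' markers in these results was not tested. The drugs differed at 6 h in Rcn2 (0.42 ± 0.13, adjusted p = 0.0328) and Sdf4 (0.38 ± 0.13, adjusted p = 0.0453), with overlapping libraries. Both calls were lost without replicate 2 or 3 of either drug at 6 h, at 0.32 to 0.41 for Rcn2 (adjusted p = 0.127 to 0.425) and 0.27 to 0.39 for Sdf4 (adjusted p = 0.122 to 0.497), and with the compared libraries alone (0.41, adjusted p = 0.212, and 0.36, adjusted p = 0.288).

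At 24 h Rcn2 was at 86.4, 87.9 and 109.7 CPM with SW016789, 67.9, 70.9 and 74.2 CPM with thapsigargin, and 84.4, 93 and 83.7 CPM with DMSO. The thapsigargin libraries were the lowest, which passed against SW016789 (SW016789 minus thapsigargin 0.42 ± 0.13, adjusted p = 0.0229) and not against DMSO (-0.29 ± 0.13, adjusted p = 0.132; with DESeq2 -0.31, adjusted p = 0.0377). Against DMSO it also passed with the experiment block and the intergenic share (-0.28, adjusted p = 0.00849) and with the compared libraries alone (-0.32, adjusted p = 0.00272). The difference between the drugs was lost without replicate 1, 2 or 3 of thapsigargin 24 h (0.38, 0.43 and 0.42, adjusted p = 0.125, 0.0823 and 0.212) or SW016789 24 h replicate 3 (0.30, adjusted p = 0.247). Sdf4 differed between the drugs at 24 h by 0.23 (95% interval -0.03 to 0.49, adjusted p = 0.265). That difference passed with the experiment block and the intergenic share (0.23, adjusted p = 0.0179). Rcn1 (chr2:105385948-105399319), the gene of reticulocalbin 1, was at 7.25, 5.35 and 7.07 CPM with SW016789 at 24 h, 6.56, 9.24 and 8.43 CPM with thapsigargin, and 5.25, 5.86 and 4.62 CPM with DMSO. The thapsigargin libraries were above the DMSO libraries without passing the test (0.62 ± 0.30, adjusted p = 0.162; with DESeq2 0.61, adjusted p = 0.0384), and Rcn1 passed no other test in the fit over all libraries. With the compared libraries alone this difference of Rcn1 passed (0.59, adjusted p = 0.0149).

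Genes that work with these proteins were counted as lists. Of 9 partners of the calnexin cycle, which trim, refold or extract glycoproteins, 2 rose at 2 h, 6 at 6 h and 6 at 24 h with SW016789 (medians 0.11, 0.43 and 0.47, against 0.06, 0.12 and 0.06 for all genes, of which 1.9%, 4.19% and 1.95% rose). With thapsigargin 1 fell at 6 h, where 8.73% of all genes fell, and 8 rose at 24 h, where 10.1% rose (medians -0.07 and 0.50, against 0.30 and 0.07). Pdia3, the disulfide isomerase that calnexin and calreticulin recruit, rose by 0.91 ± 0.09 with SW016789 at 6 h (adjusted p = 4.72e-10) and by 0.60 ± 0.09 with thapsigargin at 24 h (adjusted p = 8.09e-07). Prkcsh, the β subunit of glucosidase II, which trims the sugar that both lectins bind, rose 1.69-fold with SW016789 (adjusted p = 1.41e-08) and 2.15-fold with thapsigargin (adjusted p = 5.97e-14) at 24 h.

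Of 14 other luminal Ca2+-binding proteins, 5, 9 and 8 rose with SW016789 at 2, 6 and 24 h (medians 0.59, 1.03 and 0.62, against 0.06, 0.12 and 0.06 for all genes, of which 1.9%, 4.19% and 1.95% rose). With thapsigargin 1 rose and 4 fell at 6 h, where 8.06% of all genes rose and 8.73% fell, and 7 rose and 2 fell at 24 h, where 10.1% rose and 10.7% fell (medians 0.16 and 0.32, against 0.30 and 0.07). The largest rises with SW016789 at 6 h were of Creld2 (2.08 ± 0.10, adjusted p = 3.82e-17), Pdia4 (1.90 ± 0.10, adjusted p = 1.06e-16) and Hspa5 (1.79 ± 0.10, adjusted p = 7.6e-16), the gene of the ER chaperone BiP. The SW016789 fold change at 24 h was 0.465 times that at 6 h for Hspa5 (adjusted p = 2.36e-06) and 0.468 times for Creld2 (adjusted p = 3.13e-06), and 0.6 times for Manf. Fkbp9, an ER prolyl isomerase with EF-hands, fell with thapsigargin at 24 h (-1.11 ± 0.14, adjusted p = 7.45e-08) and differed between the drugs (1.14 ± 0.14, adjusted p = 6.87e-08). Of the 3 KDEL receptors, which return ER proteins from the Golgi, 2 rose at 6 h and 3 at 24 h with SW016789 (medians 0.58 and 0.60, against 0.12 and 0.06 for all genes, of which 4.19% and 1.95% rose), and with thapsigargin 1 fell at 6 h (median -0.19, against 0.30, with 8.73% of all genes lower). At 24 h all 3 were higher with SW016789 than with thapsigargin (median 0.52, against 0.00, with 9.78% of all genes higher), led by Kdelr3 (0.95 ± 0.24, adjusted p = 0.00338). In the same comparison 0 calnexin cycle partners were higher and 3 lower (median -0.01), where 1797 of 21752 genes were lower. Of the other luminal Ca2+-binding proteins 4 were higher, Fkbp9 among them, and 1 was lower, Hspa5 (-0.92 ± 0.10, adjusted p = 2.15e-09). Hspa5 had risen with thapsigargin at 24 h by 1.61 ± 0.10 (adjusted p = 1.44e-15).

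Of the 8 β cell markers, 1 fell at 2 h with SW016789, where 148 of 21752 genes fell (median -0.06, against 0.06 for all genes). With the same drug 3 fell at 6 h and 3 at 24 h, where 2.85% and 1.06% of all genes fell (medians -0.21 and -0.27, against 0.12 and 0.06 for all genes). With thapsigargin 7 fell at 6 h and 7 at 24 h, where 8.73% and 10.7% of all genes fell (medians -0.66 and -1.33, against 0.30 and 0.07).

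The genes closest to each member in pattern were ranked by Pearson's r over the 13 group means of log2 CPM, among genes tested with a mean of at least 10 CPM (up to 9938 genes). These r share libraries and describe likeness only. Calr was closest to Canx (0.99), Tmed9 (0.99) and Smim14 (0.98), and Canx to Clptm1l (0.99), Calr and Nucb2 (0.98). Manf was closest to the ER chaperone genes Dnajb11 (0.99), Dnajc3 (0.99) and Hsp90b1 (0.99), and Calu to Selk (0.95), Hsp90b1 (0.95) and Manf (0.93). For the 3 genes of lowest level the closest genes had lower r, at 0.92 for Rcn3 (Ccnd3), 0.91 for Cdnf (Sfi1) and 0.91 for Rcn1 (Dgka).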

How the data were processed

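RNA of MIN6 cells was sequenced in 39 libraries. Per the labels, the authors aligned reads to mm10 with STAR 2.5.2b and counted them per gene by strand with featureCounts of Subread 1.5.1. Labels and methods disagree on tool versions and on the library kit (ribosomal RNA removal or mRNA capture). The deposited values used were raw counts per gene symbol, exon lengths and the intergenic percent of each library, and 78 further columns of per-sample values were not used. edgeR 4.0.16 (R 4.3.3) fitted all 13 groups at once by quasi-likelihood, with TMM scaling, filterByExpr and Benjamini-Hochberg adjustment over all genes. The code was also run on simulated counts. These held no likeness within experiments and no intergenic reads, so that run cannot vouch for calls in the real libraries. Depth limits the precision of genes with few counts, such as Cdnf.

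Alternatives were DESeq2 1.42.0, its size factors, no filter, the experiment number as a block with and without the intergenic percent, the compared libraries alone, no libraries above 25% intergenic reads, and each library left out. Each fit without 1 library estimated the dispersion and adjusted p over all genes anew. A call could thus be lost at an equal or larger fold change, as for Calr with SW016789 at 2 h. The experiment numbers pair samples because the series text gives 3 independent experiments of 13 samples. Deviations from group means correlated at a mean r of 0.287, 0.084 and 0.19 within experiments 1, 2 and 3, and at -0.093 between experiments. Single pairs ranged from -0.258 to 0.652 within experiments and from -0.555 to 0.53 between them. Deviations sum to 0 in each group, so likeness within experiments pushes the value between them below 0, and it is not separate evidence. The intergenic share was not removed first. The genes and lists were chosen with earlier results of these data known. All 10 genes are reported. Beyond them, up to 3 called genes of each list with the largest change per comparison, and the 3 genes of highest r per member, could be named. Sequences are from RefSeq (GRCm38.p6).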

Additional observations from a re-analysis of the deposited data

Results flagged for a closer look

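In 12 cases a gene's response to a drug differed between 2 and 6 h or between 6 and 24 h. The test was of the difference itself (edgeR's quasi-likelihood test, adjusted p below 0.05), and the change from 1 to 2 h was not tested. From 2 to 6 h the SW016789 effect grew by 0.69 for Calr, 0.39 for Canx, 0.79 for Manf and 0.81 for Nucb2 on the log2 scale (background 0.8%). These 4 calls were lost with the compared libraries alone (adjusted p = 0.0798 to 0.38). From 6 to 24 h the SW016789 effect grew by 1.54 for Rcn3 (background 0.515%) and changed by -0.74 for Manf (background 0.938%). Of 12 fits that each left out 1 library, the Rcn3 call was lost in 11 and the Manf call in 3. The thapsigargin effect from 6 to 24 h grew by 0.81 for Calr, 0.62 for Canx, 0.51 for Calu, 0.58 for Manf and 0.84 for Nucb2 (background 3.13%). It changed by -1.33 for Rcn3 (background 3.15%). Of 12 fits that each left out 1 library, the Rcn3 call was lost in 10, that of Manf in 5 and that of Calu in 2.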

How the results depend on the processing

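Of 160 results for the 10 genes 46 were called, and 24 of these were called under every alternative; Rcn3 with SW016789 at 24 h was called under all that gave it an adjusted p. None reversed. Outside left-out libraries, 14 of 1106 values lost a call and 30 gained one. With 1 library left out, 99 of 1200 lost a call and 2 gained one. With the experiment number as a replicate block no call was lost, and 4 were gained (Calr with thapsigargin at 6 h, 0.21, and the 3 of Calu given with its values); it changed no other call. DESeq2 gave no adjusted p in 14 cases, that of Rcn3 among them. Between the drugs at 2 h 2 of the 10 genes were called (0.667% of all genes in either direction), and 1 with the compared libraries alone (1.37%). Without the libraries above 25% intergenic reads, which leaves 1 thapsigargin library, the 2 h differences were 0.63 for Manf and 0.32 for Calr. At 24 h the number called was 2 (18% of all genes), and 4 with DESeq2 (34.5%) and 6 with the replicate block and the intergenic percent (23.6%). For the growth of the SW016789 effect from 2 to 6 h the number was 4 (1.32% of all genes), and 0 with the compared libraries alone (0.358%). With 1 library left out, 1 to 2, 4 to 5 and 5 to 6 genes were called with SW016789 at 2, 6 and 24 h, 0 to 2 and in each case 6 with thapsigargin at 6 and 24 h, and 1 to 2, 5 to 7 and 1 to 2 between the drugs at 2, 6 and 24 h. For changes of effect the counts were 0 to 4 (SW016789, 2 to 6 h), 0 to 1 (SW016789, 6 to 24 h) and 3 to 6 (thapsigargin, 6 to 24 h). Of all genes, DESeq2 called 688 higher and 580 lower with SW016789 at 24 h, against 424 and 231 by edgeR, and 3923 higher and 2107 lower with thapsigargin at 6 h, against 1753 and 1900. The cause was not tested.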
